A study of Mus musculus with 12 samples.

Results

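The genes described here are 8 genes whose transcripts were higher in Balb/c than in C57BL6 bone-marrow macrophages: Hal, Atp6v0e2, Msh5, Chst10, Nrcam, Cpne8, Jaml and Nnt. They were picked from the strain difference on these same arrays and named by gene, and 17 of the array's 41174 probes carried one of these names. Of the 17 probes, 15 were matched by the scanner files' gene name or by transcript accession (Jaml under its older name Amica1). The other 2, both for Nrcam, were matched only through the older symbol C130076O07Rik. All 8 genes and all 17 probes passed the filter on dim probes and were among 18450 genes tested. Because the strain difference chose the genes, their strain values below are a description and carry no test. The working label for the group, genes nearly silent in C57BL6, held only in part. The tested probes of 7 of the 8 were well above background on all 6 C57BL6 arrays, and that of Hal on 4 of them. The tested probe is the brightest of its gene. The dimmest probe of Msh5 was above background on 0 of the 6 C57BL6 arrays and that of Nrcam on 2. For Atp6v0e2 and Cpne8 it was above on 4 and for Nnt on 5. The tested probes of Atp6v0e2 and Msh5 were themselves dim in C57BL6, at 32.2 to 57.1 and 34.4 to 72.0 scanner units.

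The 8 genes belong to unrelated pathways. Hal encodes histidine ammonia-lyase, which opens histidine breakdown by turning histidine into urocanate. Atp6v0e2 encodes a small membrane subunit of the V-ATPase, the proton pump that acidifies lysosomes and phagosomes. Nnt encodes the nicotinamide nucleotide transhydrogenase of the inner mitochondrial membrane, which uses the proton gradient to make NADPH for peroxide removal. The C57BL/6J substrain is known to carry a deletion of internal exons of Nnt. Msh5 encodes a MutS homologue that works with Msh4 in meiotic recombination. Chst10 encodes the sulfotransferase that completes the HNK-1 carbohydrate. Nrcam is an adhesion molecule of the L1 family, known from neurons, and Cpne8 a copine, a calcium-dependent phospholipid-binding protein. Jaml is an adhesion molecule of leukocytes that binds Cxadr on epithelial cells.

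Total RNA was measured on 12 one-colour Cy3 Agilent arrays, 2 for each of 6 groups. The groups were mouse bone-marrow macrophages of strain Balb/cAnNCrl or C57BL6/J, left untreated for 18 h (mock) or given recombinant mouse IL-4, at 10 ng/ml per the treatment notes, for 4 h or 18 h. Mice of both strains were 8 to 12 weeks old, and each sample pooled 2 males and 1 female. Cells of all groups were grown in human recombinant CSF1 with a medium change on day 5, were replated on day 6 and were treated from day 7. Since mock cells stood for 18 h, there was no 4 h mock to set the 4 h samples against. The treatment notes also mention LPS, which no sample label names. The 2 replicates came from independent experiments with different littermates.

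Levels are log2 of the processed signal minus the 75th percentile of the array, so that 0 is the signal of the 75th percentile probe. That percentile lay between 1143 and 1585 scanner units, between 54.86% and 69.69% of spots were well above background, and replicate arrays of a group correlated at 0.974 to 0.989. The number of arrays, 2 a group, limits the precision. The 6 defining macrophage markers (Adgre1, Csf1r, Cd68, Itgam, Fcgr1 and Mertk) were well above background on all 12 arrays, and their summed linear level, relative to the 75th percentile, was 342 to 496 in Balb/c and 343 to 469 in C57BL6. Of 6 neutrophil markers on the array, 4 (Mpo, Ngp, Ltf and S100a8) were above background on all 12 arrays and none was below it on every array. Their summed level was 0.437 to 0.923 in Balb/c and 1.67 to 3.54 in C57BL6. The 5 dendritic cell markers summed to 0.162 to 0.308 in Balb/c and 0.0543 to 0.169 in C57BL6, with Zbtb46 above background on all arrays and Clec9a on none. The part of either list in the strain differences was not tested, and in RNA from whole cultures fewer expressing cells and less RNA per cell cannot be told apart. The arrays lay on 3 slides: slide 1 held Balb/c alone, slide 3 C57BL6 alone, and slide 2 held 2 arrays of each. Slide and strain therefore overlap in large part.

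The strain contrast was broad on these arrays. Over the mean of mock, 4 h and 18 h, 3295 of 18450 genes (17.9%) differed between the strains by limma at a Benjamini-Hochberg adjusted p below 0.05, 1324 (7.18%) higher and 1971 (10.7%) lower in Balb/c. This fit took the 6 arrays of a strain as independent, although the 3 arrays of a replicate number came from the same experiment. With those 3 averaged first, which sets 2 experiments against 2, limma called 434 genes (2.35%). In the order of the Balb/c minus C57BL6 difference, Hal was number 2, Atp6v0e2 number 6, Msh5 number 12, Cpne8 number 13, Chst10 number 16, Nrcam number 20 and Jaml number 23. Nnt was number 420. For the tested probe of 7 of the 8 genes, every Balb/c array lay above every C57BL6 array, the exception being Jaml. That separation held for 759 genes (4.11%), and since it follows from how the 8 genes were picked, nothing is read from it.

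**Figure D1:**
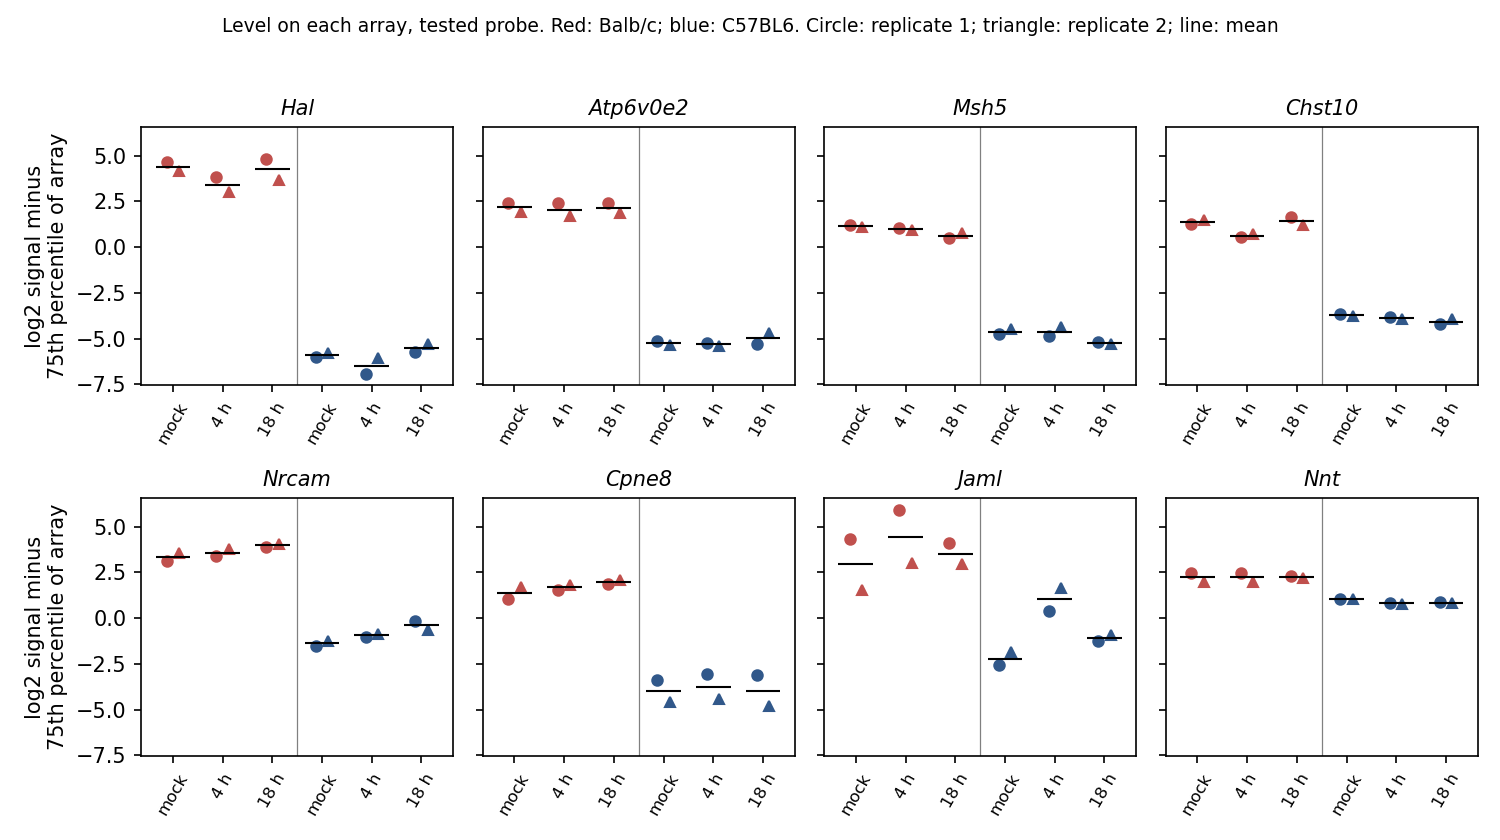
Level of each of the 8 genes on each of the 12 arrays (log2 signal minus the array's 75th percentile), with Balb/c to the left and C57BL6 to the right of the grey line. Circles are replicate 1, triangles replicate 2 and lines the means of 2. Hal spans the widest gap (mean difference 9.98), Nnt the narrowest (1.34), and Jaml alone overlaps between the strains.

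Hal showed the widest gap of the 8. In Balb/c its level in replicates 1 and 2 was 4.64 and 4.17 in mock, 3.83 and 3.00 after 4 h and 4.81 and 3.68 after 18 h of IL-4. In C57BL6 it was -6.00 and -5.77 in mock, -6.91 and -6.04 after 4 h and -5.74 and -5.30 after 18 h. All 6 Balb/c arrays were bright and all 6 C57BL6 arrays dim, with no value in between. In scanner units the probe read 12100 to 32000 in Balb/c and 11.6 to 36.9 in C57BL6, where it was still called well above background on 4 of 6 arrays. The mean difference was 9.98 (Balb/c 4.02 ± 0.67, C57BL6 -5.96 ± 0.53, SD, n = 6 each), a 1009-fold higher signal in Balb/c. That size rests on a dim side near background, and it was 6.66 with normexp, a model-based background correction, and 8.05 with normexp after leaving out spots of high local background (at least 200 scanner units). Without normexp it was 10.29 in mock, 9.89 after 4 h and 9.76 after 18 h. Between the pair of 4 h arrays that shared slide 2 it was 9.90. Hal had 1 probe, at chromosome 10, 93075295 to 93075354 on the plus strand as the files give it, so no other probe bears on the gap.

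The Hal promoter is shown because the gene has the widest gap. The window of 300 bases (250 before to 50 after the start of the transcript) is RefSeq's for GRCm38.p6, the C57BL/6J reference, chr10:93488518-93488817, plus strand, and so gives the sequence of the strain with the low signal. Capitals mark letters that match TATAAA or CCAAT on either strand.
Hal: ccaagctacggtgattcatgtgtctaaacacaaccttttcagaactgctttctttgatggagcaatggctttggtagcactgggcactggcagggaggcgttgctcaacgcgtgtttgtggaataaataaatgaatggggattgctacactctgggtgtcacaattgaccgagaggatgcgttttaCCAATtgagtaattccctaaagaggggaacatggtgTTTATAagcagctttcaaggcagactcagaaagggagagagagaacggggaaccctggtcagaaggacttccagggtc
A TATAAA match on the minus strand began 28 bases before the start and a CCAAT match 64 bases before it. Of 32841 RefSeq mouse promoter windows, 13.6% held TATAAA and 37.4% CCAAT. GC content was 47.7% and the CpG observed-over-expected ratio 0.431, against medians of 52.7% and 0.384 over all windows. A match says only that the letters occur there.

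Atp6v0e2, the V-ATPase subunit gene, was the next in size. Its tested probe read 2.44 and 1.91 in Balb/c mock, 2.42 and 1.68 after 4 h and 2.39 and 1.88 after 18 h. In C57BL6 it read -5.15 and -5.32 in mock, -5.25 and -5.38 after 4 h and -5.29 and -4.67 after 18 h. Neither strain's values moved by more than 1 log2 unit between conditions, and the strains lay 6.35 apart at their closest. The difference was 7.30 (2.12 ± 0.34 against -5.18 ± 0.26, SD, n = 6 each), or 157-fold, and 6.93 between the 4 h arrays of slide 2. The dim side stayed well above background on all 6 C57BL6 arrays, at 32.2 to 57.1 scanner units. A further probe, 5′ of the first by the files' coordinates, gave a smaller gap of 5.49 (-0.59 ± 0.34 against -6.08 ± 0.44) and was above background on 4 of 6 C57BL6 arrays. Both probes separated the strains on every array.

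The Atp6v0e2 promoter is shown because it alone among the 7 promoters found (all but that of Nnt) held the letters TTC followed after 4 bases by GAA, the spaced palindrome bound by STAT6, the transcription factor that IL-4 activates. The window is chr6:48537319-48537618, GRCm38.p6, plus strand, with matches to this palindrome and to CCAAT in capitals.
Atp6v0e2: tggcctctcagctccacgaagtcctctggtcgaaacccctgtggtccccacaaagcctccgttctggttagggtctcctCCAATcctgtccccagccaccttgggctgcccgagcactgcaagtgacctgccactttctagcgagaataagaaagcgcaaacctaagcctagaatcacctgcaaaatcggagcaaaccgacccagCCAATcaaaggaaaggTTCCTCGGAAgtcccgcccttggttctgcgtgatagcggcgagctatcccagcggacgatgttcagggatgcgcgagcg
The palindrome began 29 bases before the start, and 6.95% of all windows held one. Its first 6 letters also match GAGGAA, the core bound by the myeloid factor PU.1, on the minus strand. The gene's IL-4 changes, given below, did not pass the test in either strain. GC content was 57.7% and the CpG ratio 0.735.

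Msh5, the meiotic MutS homologue, was read by 3 probes, and all of them separated the strains. The tested probe lay between 0.50 and 1.21 (median 1.01) in Balb/c and between -5.27 and -4.35 (median -4.82) in C57BL6, a difference of 5.75 (0.93 ± 0.26 against -4.82 ± 0.37, SD, n = 6 each), or 53.8-fold. A probe nearer the 3′ end of the gene gave 4.23 (-0.65 ± 0.26 against -4.88 ± 0.41). Both were above background on all 6 C57BL6 arrays, with the tested probe at 34.4 to 72.0 scanner units. The dimmest probe was the only one of the 17 that was well above background on no C57BL6 array. It read between -2.43 and -1.35 in Balb/c. Its signal there measured 59.0-fold higher than in C57BL6, a size that rests on a C57BL6 side at background. The outer probes lay 16327 bases apart (chromosome 17, 33125919 to 33142246 on the minus strand, in the files' coordinates), so the low C57BL6 signal was not limited to 1 end of the gene. The difference hardly varied with condition, at 5.77 in mock, 5.62 after 4 h and 5.86 after 18 h.

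Chst10, the HNK-1 sulfotransferase gene, was read by 1 probe. Its level in Balb/c was 1.26 and 1.5 in mock, 0.56 and 0.71 after 4 h and 1.63 and 1.19 after 18 h. In C57BL6 it was -3.67 and -3.74 in mock, -3.81 and -3.94 after 4 h and -4.21 and -3.95 after 18 h. The C57BL6 arrays were dim but all 6 were above background, and the strains lay 4.22 apart at their closest. The mean difference was 5.03 (1.14 ± 0.43 against -3.89 ± 0.19, SD, n = 6 each), or 32.7-fold. It was smaller after 4 h, at 4.51, than in mock (5.09) or after 18 h (5.49), where the 2 Balb/c 4 h arrays were the lowest of the 6.

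Nrcam, the L1-family adhesion gene, was low rather than silent in C57BL6. Its tested probe read 3.13 and 3.55 in Balb/c mock, 3.38 and 3.78 after 4 h and 3.90 and 4.04 after 18 h. In C57BL6 it read -1.52 and -1.23 in mock, -1.02 and -0.87 after 4 h and -0.15 and -0.65 after 18 h. In both strains each 18 h value was above both mock values. In scanner units the C57BL6 arrays reached 463 to 1130, against 10400 to 22100 in Balb/c. The strain difference was 4.54 (3.63 ± 0.34 against -0.91 ± 0.48, SD, n = 6 each), or 23.2-fold. The other 2 probes gave 5.01 and 4.60, and the dimmest was above background on 2 of 6 C57BL6 arrays. The 3 probes spanned 52360 bases of chromosome 12 and differed by no more than 0.47 in the size of the gap.

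Cpne8, the copine gene, had 2 probes set 161742 bases apart on chromosome 15. The tested probe lay between 1.07 and 2.10 (median 1.74) in Balb/c and between -4.81 and -3.08 (median -3.90) in C57BL6, a difference of 5.57 (1.67 ± 0.35 against -3.90 ± 0.78, SD, n = 6 each), or 47.6-fold. Within C57BL6 the replicates stood apart: replicate 1 read -3.40, -3.08 and -3.12 and replicate 2 read -4.57, -4.40 and -4.81 in mock, 4 h and 18 h. Every replicate 2 array was thus below every replicate 1 array. The further probe showed the same split of the C57BL6 replicates, and its strain difference was 4.75. That probe was above background on 4 of 6 C57BL6 arrays. With slide as a block the difference of the tested probe was 4.90.

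Jaml, the leukocyte adhesion gene, was the most variable of the 8. In Balb/c its level was 4.33 and 1.53 in mock, 5.92 and 2.99 after 4 h and 4.11 and 2.94 after 18 h. In C57BL6 it was -2.58 and -1.87 in mock, 0.39 and 1.67 after 4 h and -1.24 and -0.90 after 18 h. The strains overlapped by 0.15, since replicate 2 of C57BL6 at 4 h was above replicate 2 of Balb/c mock. Within each condition they did not overlap. The mean difference was 4.39 (3.64 ± 1.5 against -0.75 ± 1.55, SD, n = 6 each), or 21.0-fold. It was 5.16 in mock, 3.42 after 4 h and 4.60 after 18 h, and 2.61 between the 4 h arrays of slide 2. All 6 C57BL6 arrays were above background, at 222 to 4500 scanner units, so Jaml was not silent there. In Balb/c replicate 1 was above replicate 2 in each condition. The summed level of 4 B cell markers (Cd79a, Ms4a1, Pax5 and Cd22, with Ms4a1 and Cd22 above background on all 12 arrays) split the same way, at 0.712 to 0.901 in replicate 1 and 0.366 to 0.529 in replicate 2 of Balb/c, and was 0.315 to 0.518 in C57BL6. Other marker lists did not split that way in Balb/c. The summed T cell markers were lower in replicate 1 (0.174 to 0.197) than in replicate 2 (0.198 to 0.214). The neutrophil markers overlapped, at 0.437 to 0.923 in replicate 1 and 0.525 to 0.791 in replicate 2. The part of any of these markers in the Jaml values was not tested.

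The Jaml promoter is shown because the gene has the largest IL-4 change of the 8. The window is chr9:45078933-45079232, GRCm38.p6, plus strand, with matches to TATAAA and CCAAT (as ATTGG on the other strand) in capitals.
Jaml: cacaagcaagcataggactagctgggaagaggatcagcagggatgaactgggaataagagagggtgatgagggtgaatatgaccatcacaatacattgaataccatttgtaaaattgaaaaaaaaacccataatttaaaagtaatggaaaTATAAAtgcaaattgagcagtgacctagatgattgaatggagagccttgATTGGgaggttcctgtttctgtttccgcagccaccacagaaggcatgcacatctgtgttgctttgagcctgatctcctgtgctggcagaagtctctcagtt
TATAAA began 100 bases and the CCAAT match 51 bases before the start, and the STAT6 palindrome was not in this window. It was the poorest in CpG of the 7 promoters, with 1 CpG, a CpG ratio of 0.0774 and 42.3% GC. The promoters of Msh5, Chst10, Nrcam and Cpne8 had CpG ratios of 0.855, 0.99, 0.983 and 0.806, so the 7 did not share a base composition. No motif searched was found in all 7: CCAAT was in 5, TATAAA in 2, the STAT6 palindrome in 1 and GAGGAA in 3 (Atp6v0e2, Chst10 and Cpne8), against 28.3% of all windows.

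Nnt, the transhydrogenase gene, differed from the other 7 in size. Its tested probe lay between 1.98 and 2.49 (median 2.26) in Balb/c and between 0.76 and 1.06 (median 0.86) in C57BL6, a difference of 1.34 (2.24 ± 0.22 against 0.90 ± 0.13, SD, n = 6 each), or 2.53-fold. The C57BL6 signal was 2310 to 3290 scanner units, far above background, so Nnt was lower but not silent. Another 2 probes close to it gave 1.42 and 1.29, and none of the 3 overlapped between the strains. The fourth probe, 58308 bases away by the files' coordinates and matched to another transcript accession, showed no strain gap: it read -5.47 ± 0.66 in Balb/c and -5.45 ± 0.47 in C57BL6 (SD, n = 6 each). It was near background in both, above it on 1 of 6 Balb/c and 5 of 6 C57BL6 arrays. No RefSeq promoter window was matched for Nnt.

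**Figure D2:**
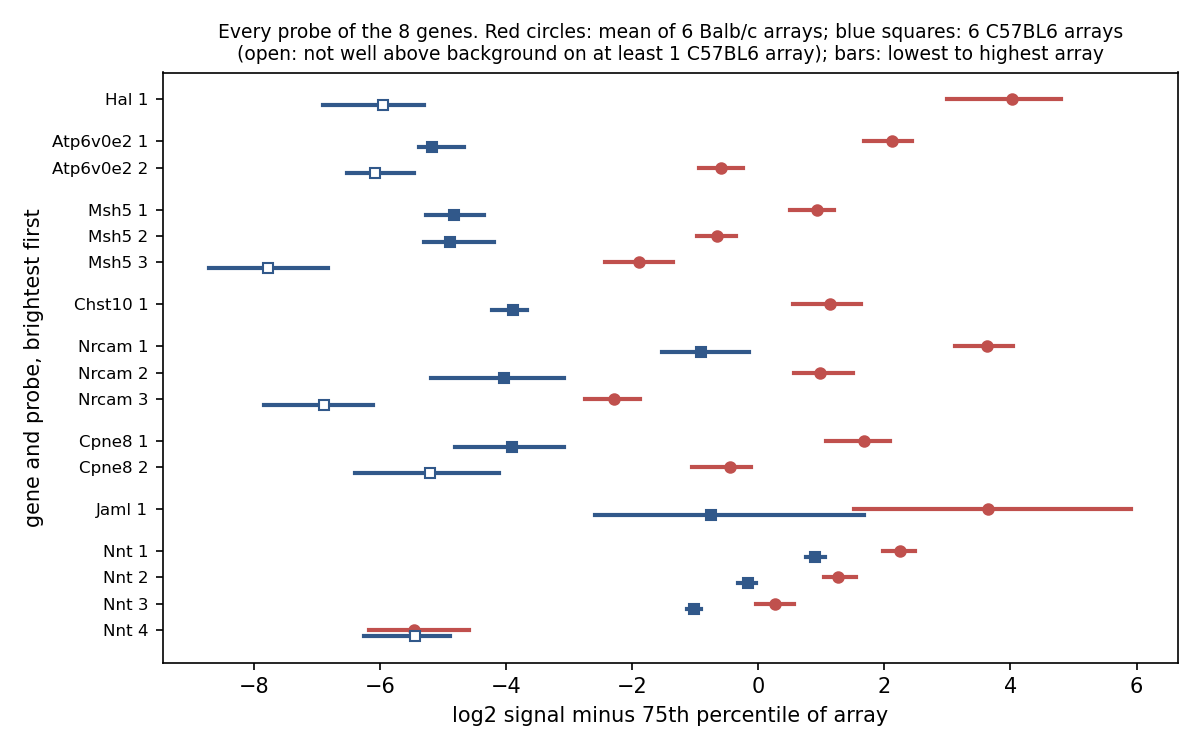
Mean level of every probe of the 8 genes over 6 Balb/c arrays (red circles) and 6 C57BL6 arrays (blue squares), with bars from the lowest to the highest array and probes of a gene ordered from the brightest. Open squares are probes that were not well above background on at least 1 C57BL6 array. The strains are apart for 15 of the 17 probes, the exceptions being the Jaml probe and the fourth Nnt probe.

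Background correction and slide moved some of these gaps. Normexp background correction after leaving out spots of high local background gave smaller gaps for 7 of the 8 genes: 8.05 for Hal, 5.95 for Atp6v0e2, 4.52 for Msh5, 4.20 for Chst10, 4.75 for Cpne8, 4.37 for Nrcam and 4.20 for Jaml. For Nnt it gave 1.35. With slide as a block the differences were 9.69 for Hal, 6.78 for Atp6v0e2, 6.08 for Msh5, 4.87 for Chst10, 4.86 for Nrcam, 3.69 for Jaml and 1.11 for Nnt. The size of a gap in log2 units therefore depends on how the dim side is corrected.

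The IL-4 comparisons did not pick the 8 genes, but the pick used the IL-4 arrays as well as mock. A gene that IL-4 raised strongly in C57BL6 could have been left out. The tests below are therefore not fully independent of the pick. None of the 8 passed the test in any of the 4 comparisons of IL-4 with mock. Over all genes limma called 262 (1.42%) at 4 h and 702 (3.8%) at 18 h in Balb/c, and 620 (3.36%) at 4 h and 822 (4.46%) at 18 h in C57BL6. Over the 32 tests of the 8 genes the lowest adjusted p was 0.0701. The medians over the 8 were -0.06 and 0.02 in Balb/c at 4 h and 18 h and -0.04 and 0.14 in C57BL6, against 0.02, 0.02, -0.04 and -0.05 over all genes. Both IL-4 comparisons of a strain share its mock arrays.

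Jaml had the largest estimates. Its 4 h level minus mock of the same replicate was 1.59 and 1.47 in Balb/c and 2.97 and 3.55 in C57BL6. All 4 pairs went up, and both C57BL6 pairs shared a slide. By limma without a block the C57BL6 mean of 3.26 ± 1.13 (SE), a 9.56-fold higher signal, had an adjusted p of 0.2, and the Balb/c mean of 1.53 ± 1.13 one of 0.797. With replicate number as a block the C57BL6 change passed the threshold (3.26 ± 0.46, adjusted p = 0.0118, when 16.6% of all genes were called), and the Balb/c change did not (adjusted p = 0.122, when 7.07% were called). The strain difference of the 4 h change was -1.73 ± 1.59 (adjusted p = 1 without the block and 0.602 with it), so the strains were not shown to differ. With slide as a block the 4 h change passed in neither strain (adjusted p = 0.107 in C57BL6 and 0.337 in Balb/c). At 18 h the C57BL6 pairs were 1.34 and 0.98 higher than mock (1.16 ± 1.13 without a block, adjusted p = 0.681), and the Balb/c pairs -0.22 and 1.42.

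Nrcam at 18 h in C57BL6 had the lowest adjusted p of the 32 tests. Its 18 h level minus mock was 1.37 and 0.58 in the C57BL6 replicates and 0.78 and 0.49 in the Balb/c ones. All 4 pairs were higher after IL-4. The mean in C57BL6 was 0.98 ± 0.24, or 1.97-fold (limma, adjusted p = 0.0701), and with the replicate block it passed the threshold (0.98 ± 0.20, adjusted p = 0.0292, against 17.6% of all genes). With slide as a block it did not (0.87 ± 0.26, adjusted p = 0.11). In Balb/c the mean without a block was 0.63 ± 0.24 (adjusted p = 0.272). The 2 dimmer Nrcam probes gave 0.67 and 1.12 in C57BL6 and 0.15 and 0.54 in Balb/c, none of them called when each probe was tested alone.

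Msh5 and Chst10 had lower estimates after IL-4 that did not pass the test. At 18 h Msh5 was 0.71 and 0.34 log2 units below mock in the Balb/c pairs (-0.53 ± 0.21, adjusted p = 0.29) and 0.43 and 0.81 below it in the C57BL6 pairs (-0.62 ± 0.21, adjusted p = 0.17). With slide as a block the C57BL6 value of the tested probe passed narrowly (-0.83 ± 0.17, adjusted p = 0.0487, against 5.5% of all genes). The replicate block gave an adjusted p of 0.0664. The Msh5 probe nearer the 3′ end differed in sign between the C57BL6 pairs at 18 h, at 0.16 and -0.94. In Balb/c it gave -0.38 and -0.25. The dimmest Msh5 probe gave -0.81 and -1.32 in C57BL6, where it was at background, and -1.08 and -0.91 in Balb/c. Neither was called at 18 h in either strain when each probe was tested alone. Chst10 at 4 h was 0.71 and 0.79 below mock in Balb/c (-0.75 ± 0.19, adjusted p = 0.144) and 0.15 and 0.20 below it in C57BL6 (-0.17 ± 0.19, adjusted p = 0.776). The strain difference of that change was -0.57 ± 0.28 (adjusted p = 1).

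Hal, Atp6v0e2, Cpne8 and Nnt gave estimates between -0.99 and 0.59 over the 4 comparisons, each within an adjusted p of 0.556 to 0.995. The lowest was Hal in Balb/c at 4 h, where the pairs were 0.81 and 1.17 below mock (-0.99 ± 0.46, adjusted p = 0.556, and 0.0509 with the replicate block). For Nnt all 4 estimates lay between -0.26 and 0.02, with a standard error of 0.21. In C57BL6 the changes of Hal and Atp6v0e2 rest on dim signal, at 11.6 to 36.9 and 32.2 to 57.1 scanner units. The difference between strains in the IL-4 change passed the test for none of the 8 at either time, nor for any of the 18450 genes (0% called) with limma. A p that misses the threshold does not show that the strains responded alike.

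**Figure D3:**
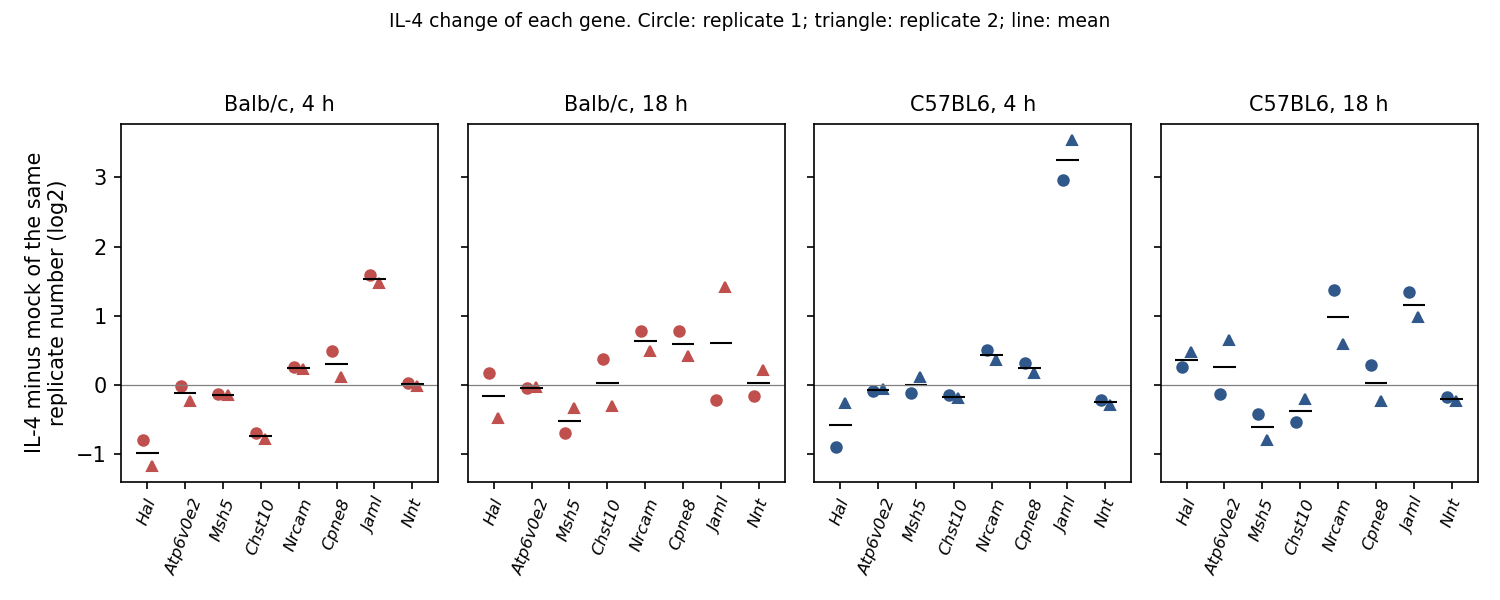
IL-4 minus mock of the same replicate number (log2) for the tested probe of each gene, in Balb/c (red) and C57BL6 (blue) at 4 h and 18 h. Circles are replicate 1, triangles replicate 2 and lines the mean. Jaml at 4 h in C57BL6 stands highest, at 2.97 and 3.55.

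The other genes of each pathway did not, as a rule, follow the strain gap. Lists of 93 relatives held 74 tested genes, of which 11 (14.9%) differed between the strains, 4 higher and 7 lower in Balb/c, against 17.9% of all genes. The median difference of the relatives was -0.09, close to -0.06 over all genes. With slide as a block 2 of them were called (5.82% of all genes), with the replicate block 26 (37.8% of all genes), and 3 of the 11 (Ank2, Pms1 and Idh2) were called whichever single array was left out. With the 3 arrays of each experiment averaged first, only Ank2 among the relatives was called (2.35% of all genes), so the calls of the other 10 below rest on taking the arrays as independent.

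Of the other histidine and histamine enzymes 0 of 4 tested were called, with differences between -0.41 and 0.65. Of 20 other V-ATPase subunits 1 was called, Atp6v1h of the cytoplasmic sector, which was lower in Balb/c by 0.44 ± 0.11 (adjusted p = 0.0313), and the 20 lay between -0.53 and 0.27. None of these 20 subunits, out of 24 listed, thus came near the gap of Atp6v0e2. Of 7 MutS and MutL homologues 1 was called, the MutL homologue Pms1, lower in Balb/c by 0.94 ± 0.14 (adjusted p = 0.00242). Of 10 sulfotransferases and HNK-1 glucuronyltransferases 1 was called, the chondroitin sulfotransferase Chst3 (-0.68 ± 0.17, adjusted p = 0.0279).

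Of 5 tested genes of the L1 family and its partners 2 were called, both higher in Balb/c. Ank2, an ankyrin of the membrane skeleton, whose family anchors L1-type adhesion molecules, lay between -4.44 and -1.17 in Balb/c and between -7.58 and -6.51 in C57BL6. The strains did not overlap, and Ank2 was above background on 6 of 6 Balb/c and 1 of 6 C57BL6 arrays. The C57BL6 side was thus largely background, and the size of the difference is uncertain. It was measured at 4.28 ± 0.18 (limma, adjusted p = 3.26e-06) and at 2.26 with normexp after leaving out spots of high local background (adjusted p = 5.16e-06). It was called with slide as a block (adjusted p = 0.00135) and with arrays averaged by experiment (adjusted p = 0.00663). L1cam itself was higher in Balb/c by 0.72 ± 0.18 (adjusted p = 0.0264).

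Of 7 other copines 2 were called, both lower in Balb/c: Cpne2 (-0.56 ± 0.14, adjusted p = 0.0262) and Cpne4 (adjusted p = 0.0256). Cpne4 was above background on 0 of 6 Balb/c and 5 of 6 C57BL6 arrays. It measured 2.27-fold higher in C57BL6, a size that rests on a Balb/c side at background. With normexp after leaving out spots of high local background the difference was -0.10 and was not called (adjusted p = 0.746). Among junctional adhesion molecules 1 of 5 was called, Clmp, a relative of Cxadr, higher in Balb/c by 2.23 ± 0.63 (adjusted p = 0.0451) with overlapping strains, and called in 2 of the 12 fits that left out 1 array. Of 16 genes of mitochondrial NADPH supply and peroxide removal 3 were called. The NADPH-forming isocitrate dehydrogenase Idh2 was higher in Balb/c by 0.48 ± 0.09 (adjusted p = 0.00922), while the superoxide dismutase Sod2 (-0.36 ± 0.09, adjusted p = 0.0248) and the glutathione peroxidase Gpx1 (-0.33 ± 0.09, adjusted p = 0.0432) were lower.

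The 8 genes lie on 8 different chromosomes. Their neighbours, the 5 nearest tested genes with a symbol on each side by RefSeq order, were called about as often as other genes: 15 of 80 (18.8%), 8 higher and 7 lower in Balb/c, with a median of -0.10. With slide as a block 2 were called (5.82% of all genes) and with the replicate block 30 (37.8% of all genes). Of the 15, 11 were called whichever array was left out. The like share over all genes was not worked out, so nothing is read from that count or from the one for relatives. With arrays averaged by experiment only Sapcd1 was called (2.35% of all genes), and the other 14 had an adjusted p of 0.07 to 0.52.

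Next to Msh5 lay the neighbour with the widest difference of the 80. Sapcd1, which immediately precedes Msh5 in this order and is a gene of little-known function, read between -0.62 and 0.25 in Balb/c and between -5.02 and -4.16 in C57BL6. All 12 arrays were above background and the strains were far apart, by 4.61 ± 0.18 (limma, adjusted p = 2.26e-06), or 24.4-fold. With slide as a block it was 4.61 (adjusted p = 2.86e-04), and with normexp after leaving out spots of high local background 3.43. With arrays averaged by experiment it had an adjusted p of 0.00629. Its probe was placed by the files at chromosome 17, 33123515 to 33123810, beside the Msh5 probes, and partly over the probe of the next gene, Vwa7 (33123755 to 33123814). Vwa7 was not called (-0.47 ± 0.23, adjusted p = 0.196), nor was Clic1, a chloride channel gene on the other side of Msh5 (-0.01 ± 0.09, adjusted p = 0.973). Sharing of transcripts between Msh5 and Sapcd1 was not tested.

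Beside Jaml, the membrane serine protease gene Tmprss4 was higher in Balb/c by 2.11 ± 0.38 (adjusted p = 0.00686) and above background on 4 of 6 C57BL6 arrays. It was 1.20 with slide as a block, and no longer called (adjusted p = 0.32), and 1.1 with normexp after leaving out spots of high local background. Beside Nrcam, Stxbp6, which codes for a SNARE-binding protein, went the other way (-2.10 ± 0.33, adjusted p = 0.00356), with 5 of 6 Balb/c arrays above background and -1.35 under the same normexp setting. Immp2l was 0.48 ± 0.14 higher (adjusted p = 0.0461). Of the neighbours of Cpne8 the synaptotagmin gene Syt10 was higher by 1.23 ± 0.23 (adjusted p = 0.00929), Rabl2 by 0.72 ± 0.12 (adjusted p = 0.00495), and Zcrb1 was lower (-0.36 ± 0.10, adjusted p = 0.047, and 0.0734 under that normexp setting). The pseudogene Zfp862-ps next to Atp6v0e2 was higher by 1.03 ± 0.15 (adjusted p = 0.0028) and was called with slide as a block too (1.45, adjusted p = 0.0131). Repin1 on the other side was lower (-0.43 ± 0.08, adjusted p = 0.0101).

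Around Hal, Nedd1 and Elk3 were higher by 0.68 ± 0.12 and 0.35 ± 0.10 (adjusted p = 0.00593 and 0.0489) and Fgd6 was lower (-0.84 ± 0.18, adjusted p = 0.0143). Around Chst10, Txndc9 and the ribosomal protein gene Rpl31 were lower (-0.44 ± 0.08 and -0.37 ± 0.11, adjusted p = 0.00607 and 0.0489). Around Nnt, Paip1 was lower (-0.46 ± 0.09, adjusted p = 0.0101). For Hal, Atp6v0e2, Chst10 and Nnt, no neighbour therefore differed by more than 1.03 in either direction.

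**Figure D4:**
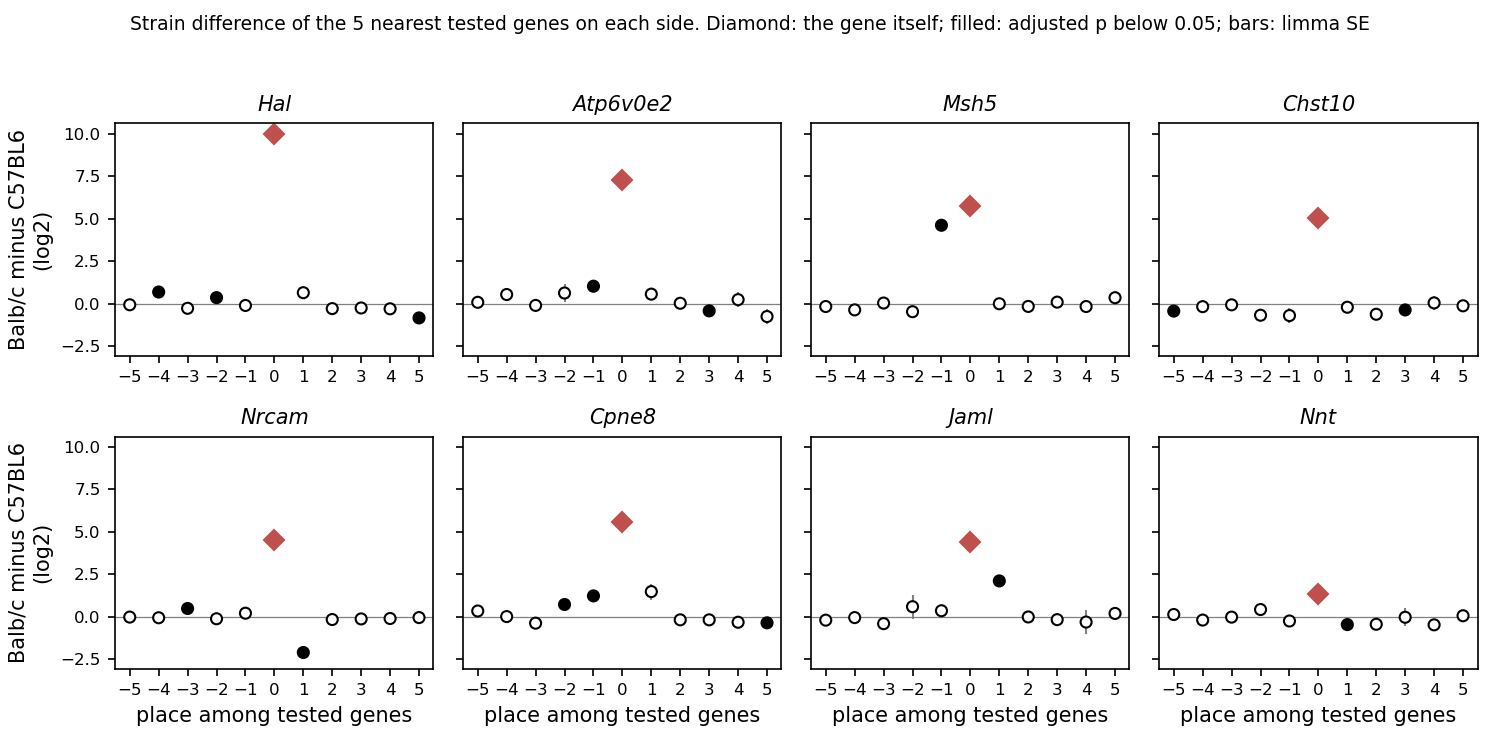
Balb/c minus C57BL6 (log2, mean of 3 conditions) of the 5 nearest tested genes on each side of each of the 8 genes, by place in RefSeq order. Diamonds are the gene itself, filled points have an adjusted p below 0.05 and bars are limma standard errors. Sapcd1, next to Msh5, stands at 4.61, and the other neighbours lie between -2.10 and 2.11.

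Some other genes were further from detection in C57BL6 than the 8. Well above background on all 6 Balb/c arrays and on no C57BL6 array were 11 of 18450 genes (0.0596%), none of them among the 8. Those with a gene symbol and the largest fold differences are given as a description. Ifi202b, an interferon-inducible p200 family gene, was an estimated 16041-fold higher in Balb/c. H2-Ea, an MHC class II chain gene, was 627-fold and Gbp2b, a guanylate-binding protein gene, 498-fold higher. They were followed by Tafa2 (60.9-fold), Angptl7 (46.3-fold), Plppr4 (34.6-fold), the thyroid hormone-binding crystallin gene Crym (19.5-fold) and Rasal2 (9.81-fold). These folds are estimates and not lower limits. The C57BL6 level put in was the array's lowest level well above background (-9.04 to -7.06), or the probe's own if higher. A probe can lie above that level and still miss detection, as Cpne4 did in Balb/c with a mean of -6.37. The folds are for the signal without normexp, and their size depends on the background correction.

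The genes whose levels followed each of the 8 most closely over the 12 arrays were, with Pearson's r as a description, Tmem87a for Hal (0.992), Ifi202b for Atp6v0e2 (0.996), Sfi1 for Msh5 (0.998), Ocel1 for Chst10 (0.993), Zfp69 for Nrcam (0.992), Hyi for Cpne8 (0.992), Fgf11 for Jaml (0.98) and Pdgfrb for Nnt (0.992). All of these genes were themselves higher in Balb/c, from 1.34 for Hyi to an estimated 13.97 for Ifi202b, which was above background on no C57BL6 array. The 12 arrays fall into 2 strains, so a shared strain gap can by itself give a high r.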

How the data were processed

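RNA of 12 samples was measured on one-colour Agilent arrays. Per the file headers, the deposited scanner files give a processed green intensity on a linear scale. The submitters' processing notes name Agilent Feature Extraction 9.5.1.1. The authors also deposited a linear ratio per probe. For most probes this ratio matched each array's scaled signal divided by the average of the C57BL6 mock pair (median absolute log2 deviation at most 0.00051 on any array). Some probes deviated more, and the SD of the log2 deviation was 0.179 to 0.447 over the arrays. The deposited ratio served as an alternative, and its column medians were 0.936 to 1.132. The genome build of the probe coordinates is not given in the sources used here.

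Control and outlier spots were left out (103 to 134 flagged spots an array), intensity was put on a log2 scale, and each array's 75th percentile was subtracted. A probe was kept if it was well above background in both replicates of any group (27409 probes), and the brightest kept probe of each gene was tested (18450 genes). Gene names came from transcript accessions or symbols through RefSeq GRCm38.p6. All 12 arrays entered 1 limma model of group means, with empirical Bayes moderation (residual df 6, prior df 2.03) and Benjamini-Hochberg adjustment over all genes. Software was R 4.3.3, limma 3.58.1, the package data.table (version 1.17.8), Python 3.11.15, pandas 2.3.3, numpy 2.4.6 and matplotlib 3.10.9. The model was tested on simulated data for 18 h of IL-4 in Balb/c: among 18450 genes it called 63 of 100 shifted by 2 log2 units, 93 of 100 shifted by 4, and 6 unshifted. The simulated arrays were drawn independently, without deviations shared by experiment or slide, so these counts need not hold for the real arrays.

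The series text describes 2 independent experiments with different littermates, so replicate numbers were taken to pair samples within a strain. Same-numbered arrays of a strain deviated together from their group means (r = 0.155 to 0.652 over 6 pairs of groups). The highest r (0.652 for Balb/c 4 h and 18 h, 0.622 for C57BL6 mock and 4 h) were between groups whose same-numbered arrays shared a slide. These correlations therefore cannot tell a shared experiment from a shared slide. For probes below background on every array of a strain, the level put in was each array's lowest level well above background. The probe's own level was used where it was higher. The resulting fold is an estimate, not a lower limit, and holds only for the signal without normexp. All 8 genes were named with all their probes. Relatives and neighbours were named up to 3 a list, by the largest called strain difference. The genes, lists and naming rule were chosen with earlier results of these data known. Alternatives were normexp, quantile and median scaling, deposited ratios, no filter, replicate and slide blocks, fewer arrays, every probe alone and, added after seeing the data, arrays averaged by experiment. A withheld marker gene is not reported here.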

Additional observations from a re-analysis of the deposited data

How the results depend on the processing

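The 4 IL-4 comparisons (Balb/c 4 h, Balb/c 18 h, C57BL6 4 h, C57BL6 18 h, then the strain contrast) called 262, 702, 620, 822 and 3295 genes. The planned normexp correction gave 3, 138, 24, 130 and 476, with 0 relatives and 3 neighbours. It was pulled by spots with a local background of 200 scanner units or more (0 to 19 an array). Leaving these out, a choice made after seeing the data, gave 270, 712, 759, 939 and 3088, with 11 relatives and 16 neighbours. The replicate block gave 1304, 2721, 3070, 3239 and 6975, with 26 relatives and 30 neighbours. It called 1 of the 8 genes in C57BL6 at 4 h (Jaml, 3.26) and 1 at 18 h (Nrcam, 0.98) and changed no other call of the 8. The slide block called 1074 strain differences, with 2 relatives and 2 neighbours, and 1 of the 8 genes at 18 h in C57BL6 (Msh5, -0.83). Averaging the 3 arrays of each experiment first, also chosen after seeing the data, called 434 strain differences, with 1 relative (Ank2) and 1 neighbour (Sapcd1). Without the background filter 118, 439, 300 and 468 genes were called for IL-4, with 5 relatives. Fitting only the arrays compared gave 0, 17, 69 and 371, with fewer samples behind each variance. Median scaling gave 173 in Balb/c and 382 in C57BL6 at 4 h, with 7 relatives and 9 neighbours. Testing every probe alone called 4967 probes between strains. The difference between strains in the IL-4 change, 0 genes at both times, gave 2 (quantile) and 1 (deposited ratios) at 4 h, and 9 (quantile), 2 (median), 1 (deposited ratios) and 3 (slide block) at 18 h, none of them among the 8.

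Leaving out 1 array at a time gave 67 to 190 and 311 to 731 genes in Balb/c at 4 h and 18 h, 82 to 671 and 212 to 868 in C57BL6, and 2129 to 3880 between strains. It gave 0 to 5 and 0 to 4 for that difference between strains, 4 to 11 relatives, 11 to 19 neighbours, and 0 of the 8 genes in every IL-4 comparison. Relatives numbered 4 without Balb/c mock replicate 1, Balb/c 18 h replicate 2, C57BL6 4 h replicate 2 or C57BL6 18 h replicate 2. The Jaml change at 4 h in C57BL6 stayed between 2.61 and 3.90 (adjusted p 0.121 to 0.587), and that in Balb/c between 0.06 and 2.99. At 18 h in Balb/c Jaml turned from 0.60 to -0.81 without mock replicate 2, and at 18 h in C57BL6 from 1.16 to -0.03 with planned normexp. For the 8 strain gaps, Hal ranged from 9.79 to 10.17 and Jaml from 3.90 to 4.88. The planned normexp gave 6.66 for Hal, 4.69 for Atp6v0e2, 3.40 for Msh5, 3.26 for Chst10, 3.91 for Nrcam and 3.69 for Cpne8. Where no cause is named, the cause was not tested. Signal near background limits the gaps of Hal, Atp6v0e2 and Msh5 most.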
